A study of Haemulon flavolineatum and Haemulon macrostomum and Haemulon carbonarium with 36 samples.

Results

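The soluble lectins described here are the 6 isogroups that carry 1 of 3 protein names in the study's table of differentially expressed genes: 3 isogroups named serum lectin isoform 3, 2 named intelectin-1a and 1 named lactose-binding lectin l-2. They are 6 of the 58532 isogroups in the count table, and all 6 were among the 8598 that passed the count filter. An isogroup is a cluster of overlapping, nearly identical assembled contigs taken to be 1 gene, so that several isogroups can carry the same name. Whether isogroups of 1 name are separate genes, or variants or pieces of 1 gene, was not tested. The names were chosen by the fold changes between species of isogroup43018, isogroup48155 and isogroup1539 in these same fish, and the table that gave the names lists differentially expressed genes only. Levels and fold changes between species are therefore given as a description, without a test. A further isogroup, isogroup36656, is named lactose-binding lectin l-2 in the part of the annotation at hand and was left out of the 6, with at most 6 counts in any fish. Isogroups of the 3 names outside these sources were not analysed here.

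The livers came from wild fish of 3 grunt species that live together on reefs of the Caribbean coast of Panama: 8 fish were *H. carbonarium*, 17 were *H. flavolineatum* and 11 were *H. macrostomum*. The paper reports that *H. macrostomum* came mostly from outer reefs with stronger currents and waves than those of the other species. Species and place of collection therefore cannot be fully told apart. All were speared by divers, none was treated, the age of the fish is not given in the sources used here, and sex could not be read from the undeveloped gonads. Each fish gave 1 TagSeq library, which counts tags from the 3′ end of messenger RNA, and all were read in 1 sequencing lane. Reads of the 3 species were mapped to the liver transcriptome of *H. macrostomum*.

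Lectins are proteins that bind sugars. Those released into blood, mucus or egg fluids can attach to sugars on the surface of bacteria, clump them and mark them for uptake or complement attack, and the liver is a main source of those in blood. Salmon serum lectin is a C-type lectin, a family whose sugar binding needs calcium. Intelectins form a separate family that binds sugars found on microbes, and the human intelectins are known from the goblet cells of the gut. The lactose-binding lectin after which l-2 is named is a mucus lectin of the Japanese eel.

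Total counts per fish ranged from 578011 to 3252882, with a median of 1612629. The unit of level is CPM, the usual depth-scaled count, relative to the TMM-scaled total of tested isogroups in that fish, which corrects for depth and composition. As a check of the tissue, 8 isogroups named for proteins that hepatocytes secrete summed to a median of 38590 CPM in *H. carbonarium*, 27501 CPM in *H. flavolineatum* and 40614 CPM in *H. macrostomum*. Apolipoprotein A-I made up most of these sums, with medians of 30746, 19078 and 31316 CPM in the same order. A median count of at least 1 was reached by 7 of the 8 in each species. Fibrinogen alpha chain was near the floor, at medians of 0.265, 0 and 0 CPM. Egg protein transcripts stood at 104823 CPM or more in 6 *H. flavolineatum* (fish 3, 10, 12, 13, 14 and 18), which were called rich in them at a limit of 10000 CPM. The next highest *H. flavolineatum* were fish 11 at 4631 CPM and fish 2 at 1695 CPM.

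Serum lectin isoform 3 was carried by different isogroups in *H. flavolineatum* and *H. macrostomum*, and was low in *H. carbonarium* on all 3. Isogroup43018 was the *H. flavolineatum* form. Its lowest, median and highest levels were 0, 2.67 and 10.3 CPM in *H. carbonarium*, 227, 689 and 2192 CPM in *H. flavolineatum*, and 0.578, 1.62 and 2.64 CPM in *H. macrostomum*. Every *H. flavolineatum* lay above every fish of the other species, and the ranges of *H. carbonarium* and *H. macrostomum* overlapped. By mean level it ranked 125th of all isogroups in *H. flavolineatum*. The log2 fold change was -7.87 (SE 0.55) for *H. carbonarium* over *H. flavolineatum*, 1.27 (SE 0.50) for *H. carbonarium* over *H. macrostomum*, and 9.13 (SE 0.51) for *H. flavolineatum* over *H. macrostomum*. The low groups rest on few counts, with 46 counts of isogroup43018 in all *H. carbonarium* and 30 in all *H. macrostomum*, against 24194 in *H. flavolineatum*. In bulk liver, fewer cells of a type and less RNA per cell cannot be told apart. Nor can a lower transcript level be told apart from a sequence that maps less well to the *H. macrostomum* transcriptome. That transcriptome holds isogroup43018 although *H. macrostomum* livers gave almost no counts of it, and whether its contig came from *H. macrostomum* RNA was not tested.

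Isogroup31605 was the second serum lectin form of *H. flavolineatum*, at a lower and more variable level. It stood at 0.785, 3.59 and 33.2 CPM (lowest, median, highest) in *H. carbonarium*, at 3.06, 16.98 and 189 CPM in *H. flavolineatum*, and at 0, 0.569 and 2.55 CPM in *H. macrostomum*. *H. flavolineatum* and *H. macrostomum* did not overlap, while *H. carbonarium* overlapped both. As for isogroup43018, level and mapping cannot be told apart here. Fish 17 and 18 were the highest *H. flavolineatum*, at 167 and 189 CPM. For isogroup31605 the log2 fold change was -2.50 (SE 0.71) for *H. carbonarium* over *H. flavolineatum*, 3.20 (SE 0.90) for *H. carbonarium* over *H. macrostomum* and 5.70 (SE 0.81) for *H. flavolineatum* over *H. macrostomum*. *H. carbonarium* fish 2 held 45 of the 85 counts of its species, and without it the values of isogroup31605 for *H. carbonarium* were -3.42 over *H. flavolineatum* and 2.25 over *H. macrostomum*.

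Isogroup2344 was the serum lectin form of *H. macrostomum*. It was at 0, 2.24 and 7.69 CPM (lowest, median, highest) in *H. carbonarium*, at 0, 1.51 and 8.09 CPM in *H. flavolineatum*, and at 2.65, 344 and 685 CPM in *H. macrostomum*. Of the *H. macrostomum*, 10 lay between 85.8 and 685 CPM, above every fish of the other species, and fish 11 lay within their range. For isogroup2344 the log2 fold change was 0.39 (SE 0.58) for *H. carbonarium* over *H. flavolineatum*, -6.87 (SE 0.67) for *H. carbonarium* over *H. macrostomum* and -7.25 (SE 0.49) for *H. flavolineatum* over *H. macrostomum*. The first of these was within its error and is made from 35 and 53 counts.

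**Figure D1:**
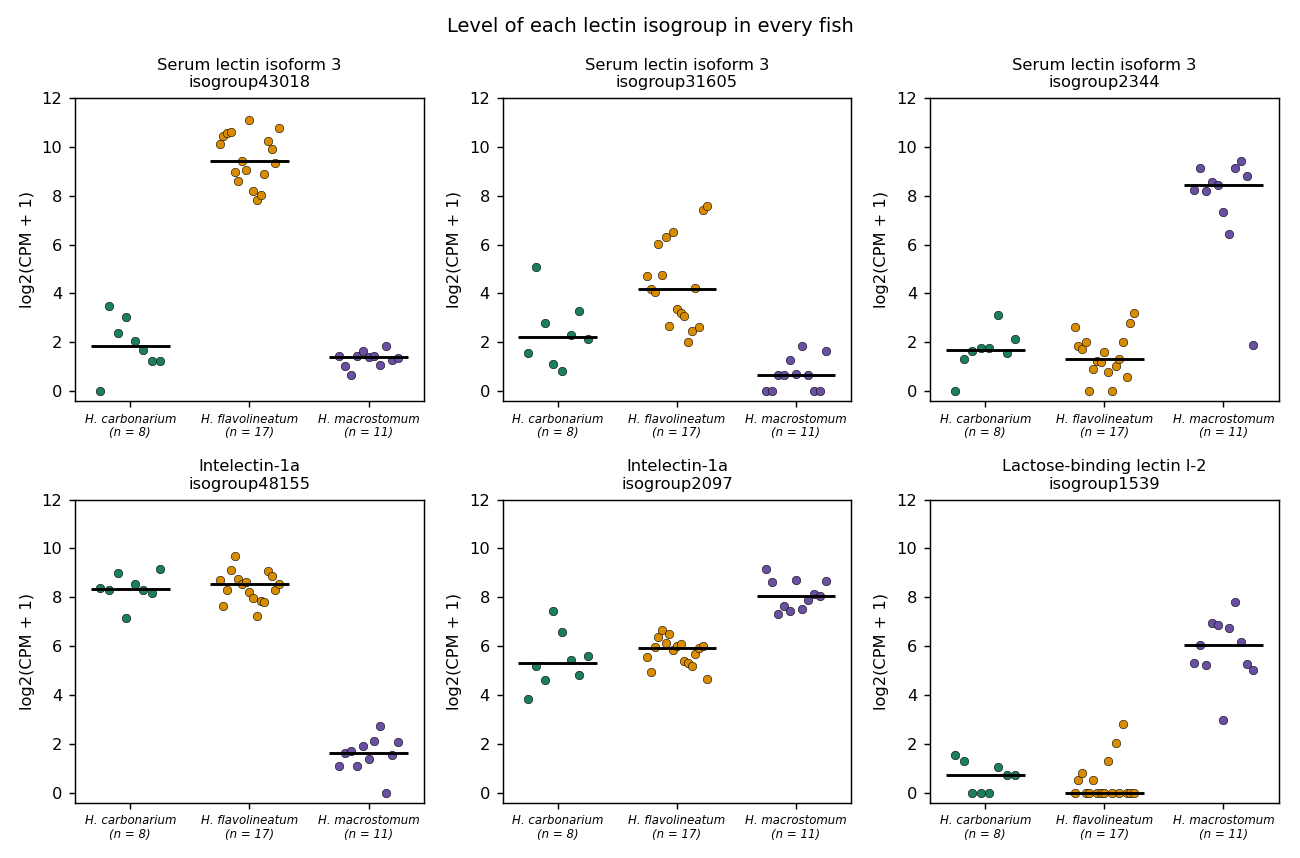
Level of each lectin isogroup as log2(CPM + 1) on the vertical axis, with 1 point per fish and a line at the median of each species. Isogroup43018 is high in the 17 *H. flavolineatum* alone, isogroup48155 in *H. carbonarium* and *H. flavolineatum*, and isogroup1539 in the 11 *H. macrostomum*, while isogroup2344 is high in all *H. macrostomum* but fish 11.

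Summed over its 3 isogroups, serum lectin isoform 3 had its lowest levels in *H. carbonarium*. The sum was at 1.92, 11.3 and 45.0 CPM (lowest, median, highest) in *H. carbonarium*, 235, 825 and 2204 CPM in *H. flavolineatum*, and 6.36, 347 and 688 CPM in *H. macrostomum*. *H. carbonarium* lay wholly below *H. flavolineatum* and below all *H. macrostomum* but fish 11, and the ranges of *H. flavolineatum* and *H. macrostomum* overlapped. The log2 fold change of the sum was -6.11 (SE 0.64) for *H. carbonarium* over *H. flavolineatum*, -4.63 (SE 0.61) for *H. carbonarium* over *H. macrostomum* and 1.48 (SE 0.43) for *H. flavolineatum* over *H. macrostomum*. The gap between *H. flavolineatum* and *H. macrostomum* was thus 1.48 log2 units for the name, against 9.13, 5.70 and -7.25 for its isogroups. As a read could match up to 5 places, isogroups can share reads, and how such reads were counted was not tested.

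The make-up of the name was close to fixed in 2 of the species. Isogroup43018 gave 19.8% of the serum lectin counts of a fish at the median in *H. carbonarium* (range 0 to 66.7%) and 97.3% at the median in *H. flavolineatum* (79.0 to 99.5%). Isogroup2344 gave a median of 99.4% in *H. macrostomum*, where 41.7% in fish 11 was the lowest share. In *H. carbonarium* all 3 isogroups contributed, with isogroup31605 at a median share of 44.7%, but the shares of a fish rest on 1 to 61 counts and are imprecise.

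**Figure D2:**
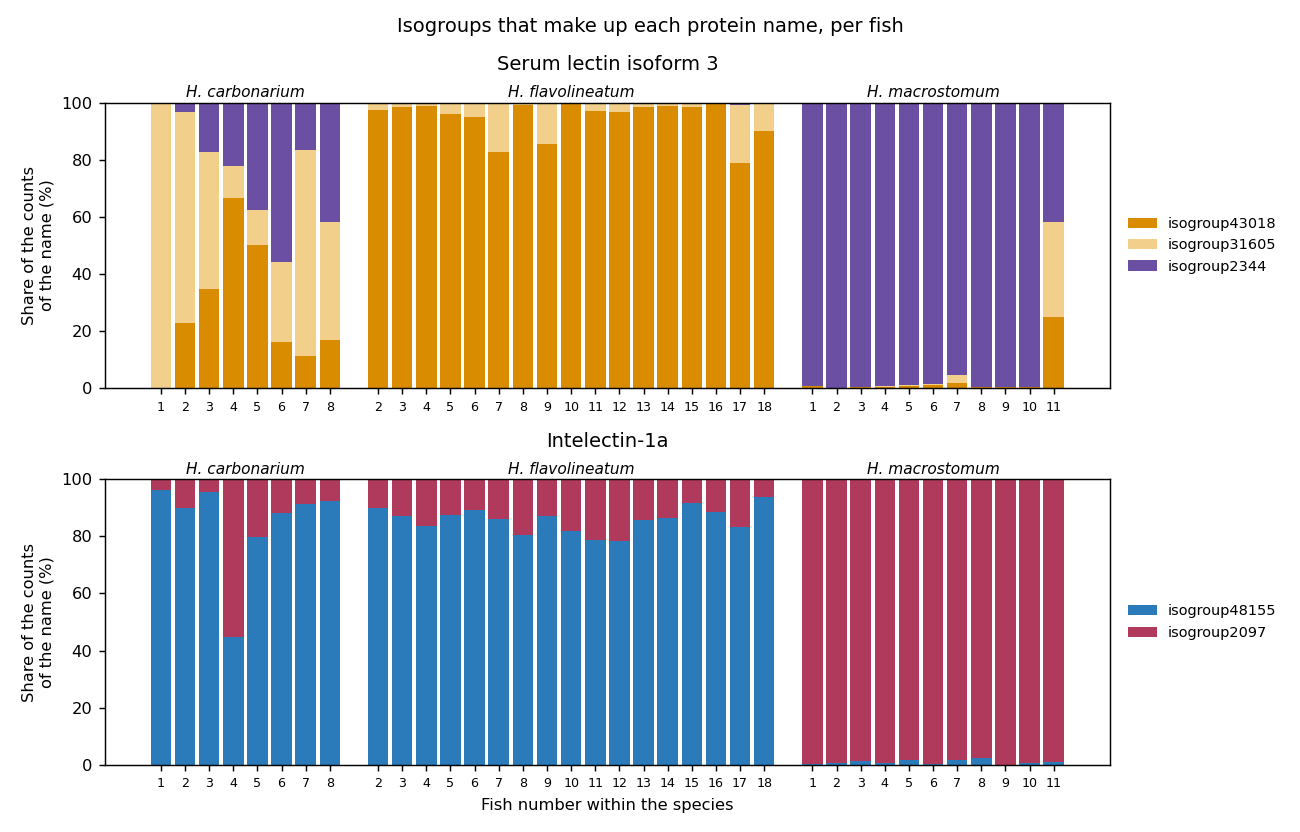
Share of the counts of each name, in percent, that each isogroup gave in each fish, with serum lectin isoform 3 above and intelectin-1a below. Serum lectin is mainly isogroup43018 in *H. flavolineatum* and isogroup2344 in *H. macrostomum*, and intelectin-1a is mainly isogroup48155 in *H. carbonarium* and *H. flavolineatum* and isogroup2097 in *H. macrostomum*.

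Intelectin-1a had summed levels that overlapped among the 3 species, but its counts fell mainly on another isogroup in *H. macrostomum*. Isogroup48155 was at 140, 324 and 576 CPM (lowest, median, highest) in *H. carbonarium*, at 149, 375 and 827 CPM in *H. flavolineatum*, and at 0, 2.05 and 5.59 CPM in *H. macrostomum*. *H. carbonarium* and *H. flavolineatum* overlapped over most of their range, and both lay wholly above *H. macrostomum*. The log2 fold change was -0.07 (SE 0.28) for *H. carbonarium* over *H. flavolineatum*, 7.24 (SE 0.38) for *H. carbonarium* over *H. macrostomum* and 7.32 (SE 0.37) for *H. flavolineatum* over *H. macrostomum*. All *H. macrostomum* together had 43 counts of isogroup48155, against 4153 in *H. carbonarium* and 9700 in *H. flavolineatum*. As for isogroup43018, whether the contig of isogroup48155 came from *H. macrostomum* RNA was not tested. Nor can a lower level be told apart from a sequence that maps less well.

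Isogroup2097, the other intelectin-1a, ran the opposite way with a smaller difference. It was at 13.4, 38.9 and 172 CPM (lowest, median, highest) in *H. carbonarium*, at 24.3, 59.3 and 100.3 CPM in *H. flavolineatum*, and at 157, 268 and 570 CPM in *H. macrostomum*. *H. flavolineatum* lay wholly below *H. macrostomum*, and in *H. carbonarium* only fish 4, at 172 CPM, reached the range of *H. macrostomum*. That fish was also the lowest *H. carbonarium* for isogroup48155, at 140 CPM. The log2 fold change of isogroup2097 was -0.01 (SE 0.31) for *H. carbonarium* over *H. flavolineatum*, -2.38 (SE 0.36) for *H. carbonarium* over *H. macrostomum* and -2.37 (SE 0.28) for *H. flavolineatum* over *H. macrostomum*. Without fish 4 the values for *H. carbonarium* were -0.46 over *H. flavolineatum* and -2.87 over *H. macrostomum*.

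The intelectin-1a sum was at 313, 356 and 624 CPM (lowest, median, highest) in *H. carbonarium*, at 190, 400 and 928 CPM in *H. flavolineatum*, and at 159, 270 and 571 CPM in *H. macrostomum*. All 3 ranges overlapped. The log2 fold change of the sum was -0.06 (SE 0.24) for *H. carbonarium* over *H. flavolineatum*, 0.46 (SE 0.26) for *H. carbonarium* over *H. macrostomum* and 0.52 (SE 0.22) for *H. flavolineatum* over *H. macrostomum*. Isogroup48155 gave a median of 90.7% of the intelectin-1a counts of a fish for *H. carbonarium*, 86.5% for *H. flavolineatum* and 0.716% for *H. macrostomum*. In *H. carbonarium* fish 4 its share was 44.9%, and in the other *H. carbonarium* and all *H. flavolineatum* it was at least 78.4%.

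**Figure D3:**
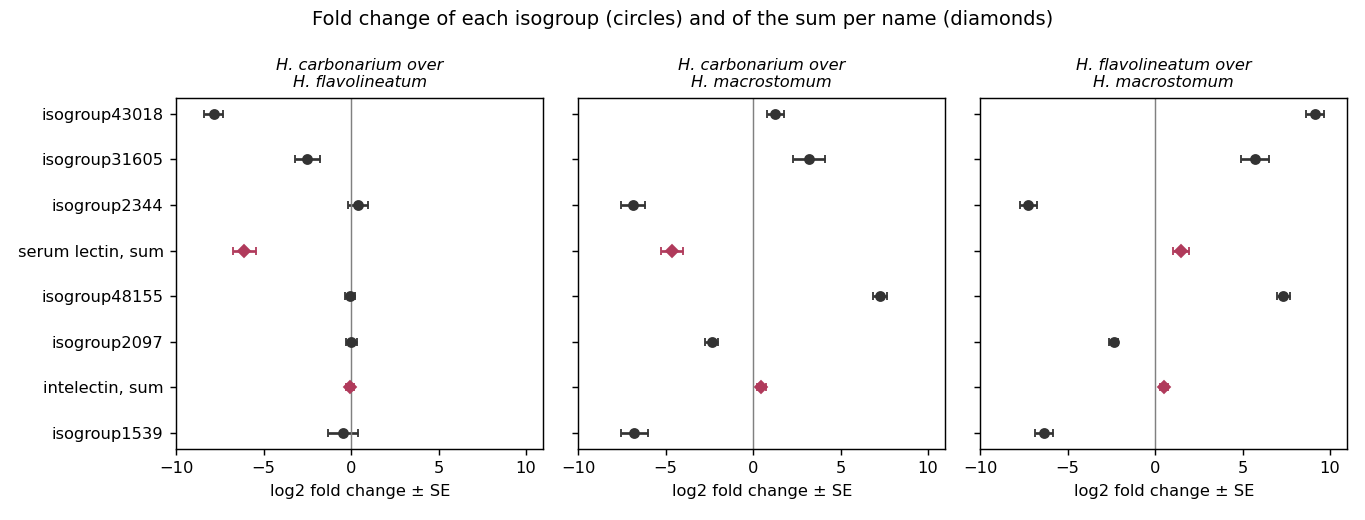
Log2 fold change with its standard error for each isogroup (circles) and for the sum of the isogroups of 1 name (diamonds) in the 3 pairs of species. Isogroups of 1 name lie on opposite sides of 0 against *H. macrostomum*, and the intelectin-1a sum lies between -0.06 and 0.52 in the 3 pairs.

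The summed transcripts of the exocrine pancreas, which in many bony fish lies partly within the liver, also had a higher median in the species with much isogroup48155. The 10 pancreatic enzyme isogroups, whose names come from the same table of differentially expressed genes, summed to 7565, 12338 and 41082 CPM (lowest, median, highest) in *H. carbonarium*, to 1213, 5301 and 12656 CPM in *H. flavolineatum*, and to 190, 1504 and 4171 CPM in *H. macrostomum*. Of the 10, a median count of at least 1 was reached by 8 for *H. carbonarium*, by 10 for *H. flavolineatum* and by 7 for *H. macrostomum*, and 1 had no count in *H. macrostomum*. Single enzymes differed in the size of the change and a few in its direction. The log2 fold change for *H. flavolineatum* over *H. macrostomum* was 7.30 (SE 0.55) for trypsinogen isogroup62223. For elastases isogroup4491 and isogroup7069 it was 0.28 (SE 0.32) and -0.61 (SE 0.46). The other enzymes that passed the count filter had 1.08 to 5.31 for this pair. For *H. carbonarium* over *H. flavolineatum* it was 1.67 (SE 0.40) for that trypsinogen and -3.63 (SE 0.55) for amylase isogroup80829. That amylase had at most 15.3 CPM in any fish. The other enzymes past the filter had 0.71 (SE 0.39, amylase isogroup41616) to 2.69. For *H. carbonarium* over *H. macrostomum* all enzymes past the filter had positive values, from 1.68 (SE 0.83, isogroup80829) to 8.97. The median pancreatic sum was higher in *H. carbonarium* (12338 CPM) than in *H. flavolineatum* (5301 CPM), while isogroup48155 had a log2 fold change of -0.07 between these species. Isogroup48155 was at most 5.59 CPM in *H. macrostomum* while the pancreatic sum there was at least 190 CPM. Within *H. carbonarium*, isogroup48155 and the pancreatic sum had a Pearson r of -0.28 (exact permutation p = 0.453, adjusted p = 0.827, n = 8), a Spearman rho of -0.10 (exact permutation p = 0.840) and an r of -0.13 without the 2 fish farthest from the median. Within *H. flavolineatum*, r was 0.48 (permutation p = 0.0511, adjusted p = 0.470, n = 17), rho 0.45 (permutation p = 0.0703) and r without 2 fish 0.32. The part of pancreatic tissue in the species difference was not tested.

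Lactose-binding lectin l-2, isogroup1539, was found mainly in *H. macrostomum*. It was at 0, 0.664 and 1.92 CPM (lowest, median, highest) in *H. carbonarium*, at 0, 0 and 6.10 CPM in *H. flavolineatum*, and at 6.8, 64.7 and 222 CPM in *H. macrostomum*. Every *H. macrostomum* lay above every fish of the other species, though by little at the edge, where *H. macrostomum* fish 6 had 6.8 CPM and *H. flavolineatum* fish 15 had 6.10 CPM. No count was found in 3 *H. carbonarium* and 11 *H. flavolineatum*. All *H. carbonarium* together had 7 counts and all *H. flavolineatum* 23, of which fish 15 held 14, against 1363 in *H. macrostomum*. Log2 fold changes of isogroup1539 were -0.45 (SE 0.87) for *H. carbonarium* over *H. flavolineatum*, -6.79 (SE 0.76) for *H. carbonarium* over *H. macrostomum* and -6.35 (SE 0.53) for *H. flavolineatum* over *H. macrostomum*. Without fish 15 the first was 0.60 and the last -7.35, so that isogroup1539 has no set direction between *H. carbonarium* and *H. flavolineatum*. Of markers of skin and mucus, the tissue from which the eel lectin is known, only a mucin and keratin 18, which other epithelia and hepatocytes also make, were on the list. These 2 isogroups summed to a median of 33.5 CPM in *H. carbonarium*, 122 CPM in *H. flavolineatum* and 62.4 CPM in *H. macrostomum*. For *H. carbonarium* over *H. macrostomum* they ran opposite ways, with log2 fold changes of -1.25 (mucin) and 1.56 (keratin 18). Over *H. flavolineatum* the values of *H. carbonarium* were -2.22 and 0.52 (SE 0.42). For *H. flavolineatum* over *H. macrostomum* both were higher, by 0.97 and 1.04. Their part in the level of isogroup1539 was not tested. Nor can a lower level of isogroup1539 in the other species be told apart from a sequence that maps less well to the *H. macrostomum* transcriptome. The same limit holds for isogroup2344 and isogroup2097, which were also highest in *H. macrostomum*.

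Counted over the 6 isogroups, levels did not overlap between *H. carbonarium* and *H. flavolineatum* for 1, between *H. carbonarium* and *H. macrostomum* for 2, and between *H. flavolineatum* and *H. macrostomum* for 5. Over all tested isogroups the share without overlap was 2.42%, 3.59% and 3.54% in the same order of pairs. The median size of the log2 fold change was 0.42, 5.0 and 6.8 for the 6 lectins and 0.44, 0.46 and 0.53 for all tested isogroups. As these differences chose the lectins, nothing is read from the gap. The 3 comparisons share fish, so they do not give separate evidence.

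The lectins were not chosen directly by how much they varied among fish of 1 species. The calls behind the table of differentially expressed genes do depend on that variation, so the choice was not free of it. The SD of log2(CPM + 1) was set against all isogroups with a mean of at least 10 CPM in the species, and is a description that also carries counting error. Isogroup2344 in *H. macrostomum* had an SD of 2.14 log2 units, at percentile 99.0, but without fish 11 it was 0.90, at percentile 80.6. Isogroup31605 in *H. flavolineatum* had an SD of 1.77, at percentile 98.2, which moved by less than 1.5 times with any 1 fish left out. Isogroup1539 in *H. macrostomum* had 1.31 (percentile 92.4), isogroup43018 in *H. flavolineatum* 1.03 (87.7) and isogroup2097 in *H. carbonarium* 1.13 (85.1). The remaining intelectin values were near the median of all isogroups, with an SD of isogroup48155 of 0.61 in *H. carbonarium* (percentile 46.3, or 0.37 and 18.7 without fish 4) and 0.61 in *H. flavolineatum* (49.2), and of isogroup2097 of 0.55 in *H. flavolineatum* (37.7) and 0.62 in *H. macrostomum* (56.3). In *H. flavolineatum*, the highest and the lowest fish for isogroup43018 (fish 10 and 12) were both among the 6 rich in egg protein transcripts. Isogroup48155 was at 149 to 375 CPM in those 6 fish, at or below the species median of 375 CPM. The other *H. flavolineatum* had 249 to 827 CPM, with the lowest value in fish 11, which also had some egg protein transcripts (4631 CPM). Fish 2, the next highest in egg protein transcripts (1695 CPM), had 413 CPM of isogroup48155. Fish 17 and 4, with 420 and 132 CPM of egg protein transcripts, had 315 and 317 CPM. Without the 6 fish, the log2 fold change of the intelectin-1a sum for *H. flavolineatum* over *H. macrostomum* was 0.75, against 0.52 with all fish. A link of isogroup48155 with egg protein transcripts was not tested.

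The fish farthest from the others for isogroup2344 was *H. macrostomum* fish 11, which had 5 counts (2.65 CPM). Its gap to the lowest other *H. macrostomum*, 4.57 log2 units on log2(CPM + 1), was the largest such gap below the others for that fish over all 8598 tested isogroups, and the next was 2.35. The library of that fish was not the most extreme as a whole. Its correlation with the median of the other *H. macrostomum* over tested isogroups was 0.895. That was among the lower values, above fish 6 (0.845) and fish 10 (0.873), with up to 0.942 in the other fish. It was the lowest fish for 929 isogroups, against 491 to 1132 in the other fish, of which fish 5, 6 and 10 had more. It had 4 counts of isogroup31605 and 3 of isogroup43018, so the other isogroups of the name were low there too. Some named lectins outside the 6, picked after their values were seen, were at their highest there, among them isogroup20440, named serum lectin isoform 2, with 36 counts (19.1 CPM) against 0 to 15 counts in the other fish, and isogroup37168, a protein with a C-type lectin domain, with 760 counts (403 CPM) against 31 to 649.

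**Figure D4:**
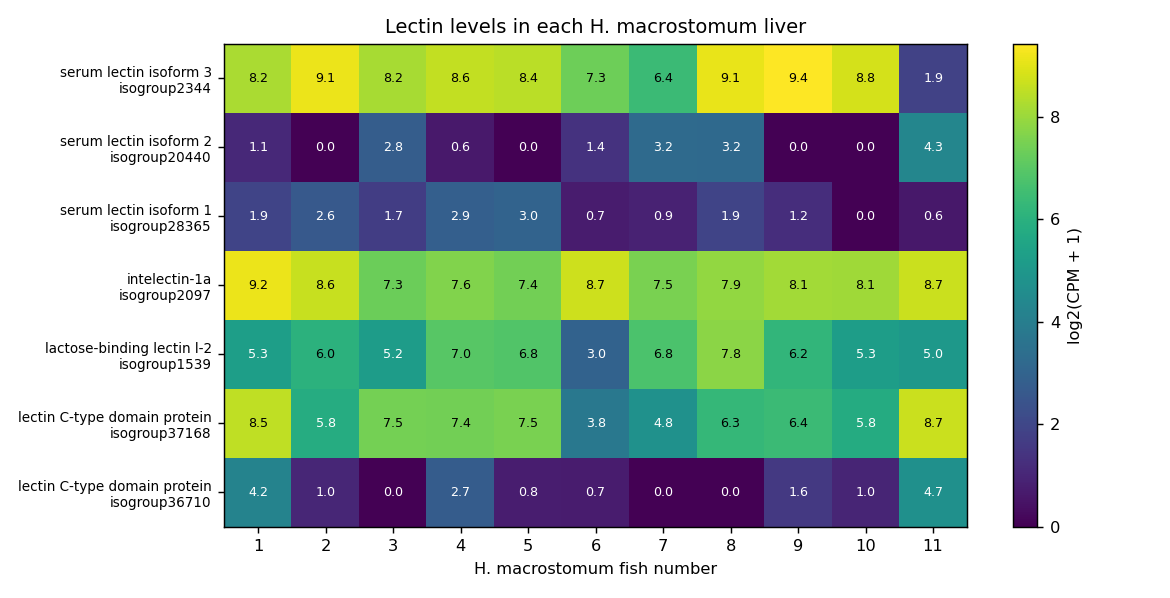
Levels of 7 lectin isogroups, as log2(CPM + 1) in colour and as numbers, in each of the 11 *H. macrostomum* livers. Fish 11 has 1.9 for serum lectin isoform 3 (isogroup2344), where the other fish have 6.4 to 9.4, and the highest values of isogroup20440, isogroup37168 and isogroup36710.

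Whether the lectins varied together within a species was tested on log2(CPM + 1) with 46 correlations (9 among *H. carbonarium*, 22 among *H. flavolineatum*, 15 among *H. macrostomum*) of the members with a median count of at least 10 with each other and with 4 marker sums (pancreatic enzymes, lymphocyte and blood markers, the acute-phase protein serum amyloid A and the hepcidins, iron-regulating peptides that rise in inflammation). Serum amyloid A was 1 isogroup near the floor, with medians of 1.95 CPM in *H. carbonarium*, 0 CPM in *H. flavolineatum* and 1.71 CPM in *H. macrostomum*. Its highest fish had 8.59 CPM, so its correlations rest on few counts and carry much counting error. After Benjamini-Hochberg adjustment over the 46, none had an adjusted p under 0.05, while 4 had an unadjusted p under 0.05 by Pearson and 4 by Spearman.

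The lowest adjusted p was that of lactose-binding lectin isogroup1539 with the hepcidins in *H. macrostomum*, where fish 8 had the highest lectin and the lowest hepcidin level and fish 6 the reverse. Pearson's r was -0.77 (permutation p = 0.0117, adjusted p = 0.401, n = 11) and Spearman's rho -0.85 (permutation p = 0.00151, adjusted p = 0.0695). Without the 2 fish farthest from the median of the lectin, r was -0.64 (adjusted p = 0.359). The relation did not pass the threshold in any form. The hepcidin sum in *H. macrostomum* was mainly isogroup5033, at a median of 5196 CPM. Isogroup12503 had a median of 398 CPM there and isogroup13090 one of 14.8 CPM, so the sum does not stand for the hepcidins evenly.

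In *H. flavolineatum*, the intelectins isogroup48155 and isogroup2097 had an r of 0.57 (permutation p = 0.0174, adjusted p = 0.401, n = 17) and a rho of 0.54 (permutation p = 0.0248, adjusted p = 0.457). Without 2 fish r was 0.43, and it was 0.77 (adjusted p = 0.0161) on CPM of the whole library without TMM, the single form of the 46 correlations that passed. In *H. carbonarium* the same intelectin isogroups had an r of -0.51 (exact permutation p = 0.192, adjusted p = 0.678, n = 8) and a rho of -0.17 (exact permutation p = 0.703). Without the 2 fish farthest from the median r was 0.02, so the value rests on those fish.

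Serum lectin isogroup43018 had an r of 0.53 with the pancreatic sum in *H. flavolineatum* (permutation p = 0.0268, adjusted p = 0.411, n = 17), a rho of 0.51 (permutation p = 0.0378) and an r of 0.54 without 2 fish. With isogroup31605, the other serum lectin there, r was 0.28 (permutation p = 0.269, adjusted p = 0.699), rho 0.35 (permutation p = 0.175) and r without 2 fish 0.33. Intelectin isogroup2097 had an r of 0.48 with the lymphocyte and blood markers (permutation p = 0.0472, adjusted p = 0.470), a rho of 0.37 (permutation p = 0.145) and an r of 0.33 without 2 fish. In *H. macrostomum*, isogroup2344 and isogroup1539 had an r of 0.32 (permutation p = 0.294, adjusted p = 0.712, n = 11) and a rho of 0.49 (permutation p = 0.130). Without the 2 fish farthest from the median, fish 11 among them, r was 0.73 (adjusted p = 0.359). The 37 other correlations ranged from -0.55 to 0.48 in r. The highest r of these was isogroup2344 with serum amyloid A in *H. macrostomum* (permutation p = 0.110, adjusted p = 0.632). There rho was 0.64 (permutation p = 0.0397, adjusted p = 0.457) and r without 2 fish 0.69 (adjusted p = 0.359). Isogroup2097 and isogroup1539 in *H. macrostomum* had an r of -0.53 (permutation p = 0.0890, adjusted p = 0.585), a rho of -0.47 (permutation p = 0.147) and an r of -0.73 without 2 fish (adjusted p = 0.359).

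**Figure D5:**
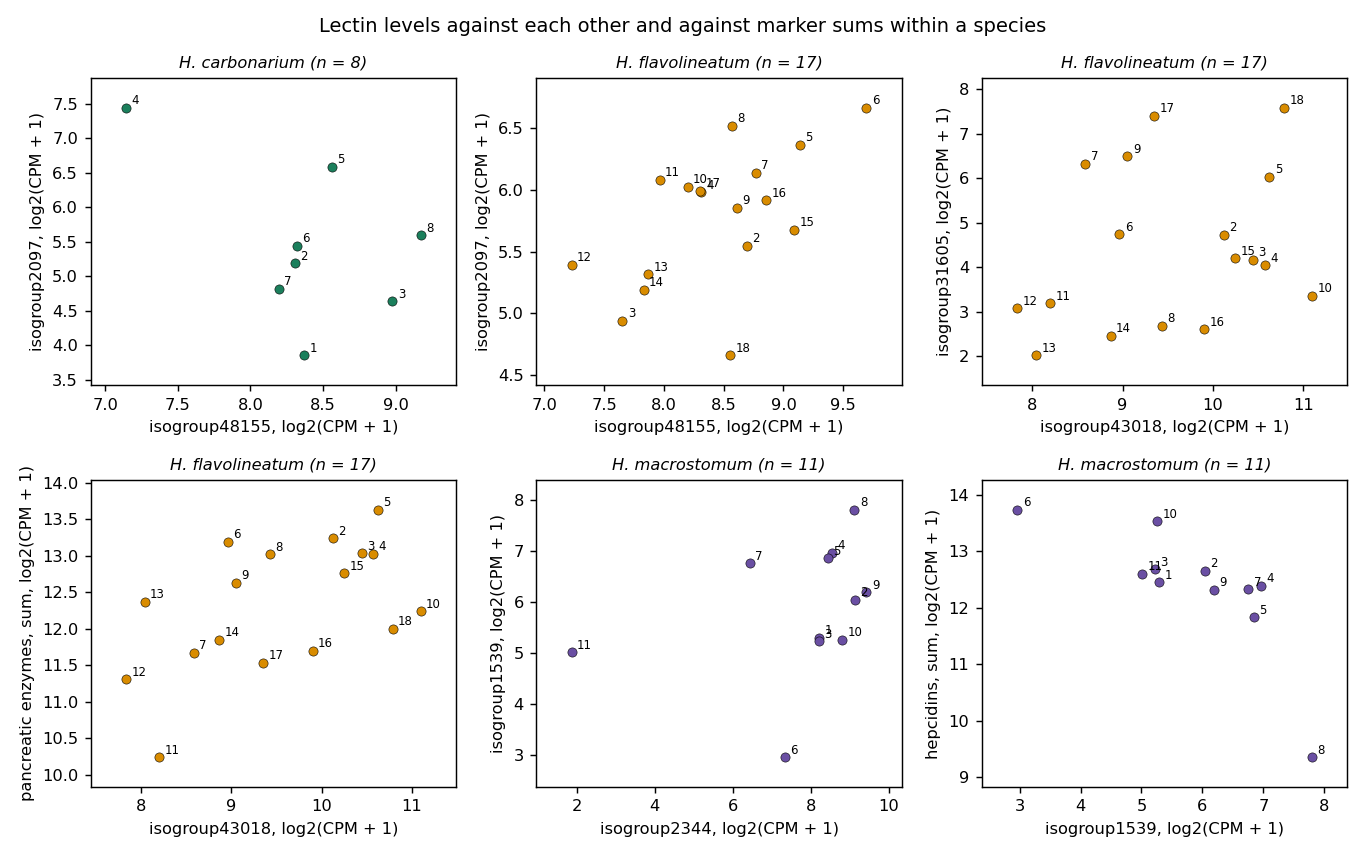
Levels of lectin isogroups against each other or against the summed pancreatic enzymes or hepcidins, as log2(CPM + 1), with 1 numbered point per fish. In *H. macrostomum*, fish 8 and fish 6 lie at opposite corners for isogroup1539 and the hepcidins, and fish 11 lies apart on the axis of isogroup2344.

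To find which named transcripts followed the 3 leading lectins most closely, Pearson's r of log2(CPM + 1) was taken with 1140 tested isogroups that have a protein name in the table of differentially expressed genes. Over all 36 fish, r mostly measures the difference between species. The 3 closest to isogroup43018 were isogroups of cytochrome c oxidase subunit 2, a respiratory chain protein encoded in the mitochondrial DNA of all fish (r = 0.98 for isogroup39741, and 0.96 for isogroup38883 and isogroup39074). Summed, these 3 were at medians of 0.265 CPM in *H. carbonarium*, 63.9 CPM in *H. flavolineatum* and 0 CPM in *H. macrostomum*, with a highest fish of 0.738 CPM, 103 CPM and 1.03 CPM. As for isogroup43018, whether these contigs came from *H. macrostomum* RNA was not tested.

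For isogroup48155 the closest over all fish were the digestive enzyme precursor trypsinogen H2_3a4 (isogroup62223, r = 0.94), integral membrane protein 2B (isogroup5189, r = 0.91) and acyl-coenzyme A thioesterase 4 (isogroup157, r = 0.91), which releases fatty acids from coenzyme A. With the trypsinogen, r was -0.32 within *H. carbonarium*, 0.33 within *H. flavolineatum* and 0.01 within *H. macrostomum*, so the likeness to the trypsinogen was one of species means. In the same order, r was -0.31, 0.21 and 0.15 with the membrane protein and -0.07, 0.77 and -0.50 with the thioesterase. For isogroup1539 they were an uncharacterised protein (isogroup4882, r = 0.94), cytochrome P450 2N14 (isogroup12256, r = 0.91) and zinc finger protein 167 (isogroup24733, r = 0.91). Within *H. macrostomum*, r was 0.65 with the uncharacterised protein, 0.79 with the cytochrome P450 and 0.32 with the zinc finger protein.

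Within the species that has the highest mean, other transcripts were closest. For isogroup43018 in *H. flavolineatum* they were 2 isogroups named merlin, a protein that links the membrane to the actin skeleton (isogroup41644, r = 0.77, and isogroup41645, r = 0.75), and leucine-rich repeat-containing protein 17 (isogroup454, r = 0.73). For isogroup48155 in *H. flavolineatum* they were 3-oxo-5-beta-steroid 4-dehydrogenase, an enzyme of bile acid and steroid metabolism (isogroup1517, r = 0.84), a reticulon (isogroup940, r = 0.84) and a 10 kDa heat shock protein of mitochondria (isogroup9461, r = 0.81). For isogroup1539 in *H. macrostomum* they were histamine N-methyltransferase, which inactivates histamine (isogroup492, r = 0.91), a rho class glutathione S-transferase (isogroup2542, r = 0.89) and LYR motif-containing protein 5 (isogroup5523, r = 0.87). These are the highest of 1140 values each, over 17 or 11 fish, and are given as a description. Isogroup48155 had a similar mean in *H. carbonarium* (357 CPM) and *H. flavolineatum* (375 CPM). Within *H. carbonarium* its r was 0.33 with the dehydrogenase, 0.47 with the reticulon and 0.77 with the heat shock protein.

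Other lectins with a name in the sources numbered 22, of which 17 had a row in the count table and 4 passed the count filter. At an adjusted p under 0.01 (edgeR quasi-likelihood test, Benjamini-Hochberg over all tested isogroups), 2 of the 4 were higher and 1 was lower in *H. carbonarium* set against *H. flavolineatum*, beside 7.85% higher and 6.55% lower of all tested isogroups. None was called between *H. carbonarium* and *H. macrostomum*, where 2 had an unadjusted p under 0.05 and DESeq2 without a filter called none of the 4 either, against 6.08% higher and 7.41% lower of all tested isogroups by edgeR. Between *H. flavolineatum* and *H. macrostomum*, 1 was higher and 2 were lower in *H. flavolineatum*, against 11.6% and 14.4%. The median log2 fold change of the 4 was 0.38 for *H. carbonarium* over *H. flavolineatum*, -0.80 for *H. carbonarium* over *H. macrostomum* and -0.52 for *H. flavolineatum* over *H. macrostomum*, beside -0.05, 0.00 and 0.04 for all tested isogroups. Most of these names also come from the table of differentially expressed genes, so the counts are not independent evidence.

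Isogroup37168, the protein with a C-type lectin domain, was low in every *H. flavolineatum*. It was at 0, 54.7 and 141.1 CPM (lowest, median, highest) in *H. carbonarium*, at 0, 0.777 and 2.90 CPM in *H. flavolineatum*, and at 12.6, 83.9 and 403 CPM in *H. macrostomum*. Its log2 fold change was 6.03 (SE 0.62) for *H. carbonarium* over *H. flavolineatum* and -7.25 (SE 0.61) for *H. flavolineatum* over *H. macrostomum*. It passed the count filter through the species where it was high, with 790 counts in *H. carbonarium* and 2776 in *H. macrostomum* against 21 in *H. flavolineatum*. Its name also comes from the table of differentially expressed genes, so these calls are not read as evidence. *H. flavolineatum* lay wholly below *H. macrostomum*, and *H. carbonarium* fish 4, without a count, lay within the range of *H. flavolineatum*.

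Isogroup21356, named C-type lectin, was highest in *H. flavolineatum*, as isogroup43018 was, at a lower level. It was at 0, 0 and 0.785 CPM (lowest, median, highest) in *H. carbonarium*, at 0, 8.31 and 40.4 CPM in *H. flavolineatum*, and at 0, 0.569 and 1.68 CPM in *H. macrostomum*. The log2 fold change of isogroup21356 was -5.43 (SE 0.99) for *H. carbonarium* over *H. flavolineatum* and 3.93 (SE 0.69) for *H. flavolineatum* over *H. macrostomum*. *H. flavolineatum* held 254 of its counts, *H. macrostomum* 12 and *H. carbonarium* 2. It thus got past the count filter by its level in *H. flavolineatum*. Without the 6 *H. flavolineatum* rich in egg protein transcripts it fell below that filter and was not tested. As it was also named from the table of differentially expressed genes, neither call is taken as evidence.

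C-type lectin domain family 10 member A (isogroup3647), a membrane lectin known from mammalian macrophages and dendritic cells, differed less. Its levels were 115, 322 and 710 CPM (lowest, median, highest) in *H. carbonarium*, 138, 207 and 328 CPM in *H. flavolineatum*, and 245, 298 and 519 CPM in *H. macrostomum*. All ranges overlapped. The log2 fold change was 0.69 (SE 0.20, edgeR adjusted p = 0.00922) for *H. carbonarium* over *H. flavolineatum* and -0.60 (SE 0.18, adjusted p = 0.00830) for *H. flavolineatum* over *H. macrostomum*, both close to the threshold. The first call was lost when any of 13 of the 36 fish was left out (highest adjusted p 0.0999) and the second when any of 16 was (highest 0.0232). Under other processing settings the first was lost in 5 of 7 and the second in 4 of 7. The 13 other lectins below the filter had mean levels of at most 9.51 CPM in any species.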

How the data were processed

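TagSeq libraries were made from 36 single livers, of which 8 came from *H. carbonarium*, 17 came from *H. flavolineatum* and 11 came from *H. macrostomum*. The authors sequenced single-end reads of 50 bases, filtered them by quality, discarded PCR duplicates, and mapped those of all species with Bowtie2 (version not given in the sources used here) to the *H. macrostomum* liver transcriptome, with up to 5 matches per read. The deposited values are raw counts per isogroup for 58532 isogroups, with totals of 578011 to 3252882 per fish. Groups come from the species label, and all columns were used. The table of differentially expressed genes also holds the authors' statistics, of which none was used; only its protein names were. No sequence of these isogroups was used here.

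The members, lists and tests were chosen with earlier results of these data known. Counts were tested in R 4.3.3 with edgeR 4.0.16 (filterByExpr on species, minimum count 10 and minimum total 15, TMM, quasi-likelihood test, species as the only term, all 36 fish in 1 fit). P-values were adjusted by Benjamini-Hochberg over 8598 isogroups, with calls at 0.01, and a standard error is the fold change divided by the square root of F. For the sums, the isogroups of a name were added before the same fit. Within species, Pearson and Spearman correlations of log2(CPM + 1) had two-sided permutation tests (exact for 8 fish, otherwise 100000 permutations) with adjustment over all 46. Named isogroups are the 6 members, the other lectins called in at least 1 pair of species, and for each of 3 leading lectins the 3 most alike over all fish and within its main species. Other lectins were named from the table or from the part of the annotation at hand. The fits and the permutation test were checked on simulated data, where at most 2 calls per contrast were false. Alternatives were DESeq2 1.42.0 without a filter, other scalings, no filter, fewer fish, a block of fish numbers, another threshold and, for correlations, another measure, scale and pseudocount. No 2 libraries of a species agreed within sampling noise (chi-square per degree of freedom at least 9.42). Depth limits low levels: 1 count is 0.324 to 1.92 CPM. Replicates are single wild fish.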

Additional observations from a re-analysis of the deposited data

Results flagged for a closer look

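In the 8 *H. carbonarium*, a fish far from the others was looked for in each of 8 lectin levels, a check set to flag about 1 group in 20 by chance. Whether that rate holds for levels that rest on few counts was not tested. Isogroup31605 stood at 33.2 CPM in *H. carbonarium* fish 2, where the next fish had 8.61 CPM, a gap of 0.758 of the whole range. The same fish was flagged for the serum lectin isoform 3 sum, at 45.0 CPM against 13.7 CPM in the next fish (0.726 of the range). Isogroup31605 made up most of that sum in fish 2, so the flag is not a separate one. Isogroup2344 stood at 7.69 CPM in *H. carbonarium* fish 6, with 3.33 CPM in the next fish (0.567 of the range). In counts these are 45 of isogroup31605 and 14 of isogroup2344.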

How the results depend on the processing

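Of the 18 fold changes of single isogroups and 6 of sums, 162 values under other settings and 862 with 1 fish left out moved by less than the replicate SD. The exceptions were both of isogroup1539: with fish numbers as a block its log2 fold change was 0.66 for *H. carbonarium* over *H. flavolineatum* and -7.35 for *H. flavolineatum* over *H. macrostomum*, and without *H. flavolineatum* fish 15, whose number no other species has, 0.60 and -7.35. The numbers do not pair the fish: deviations of same-numbered fish had a median correlation of -0.03 (range -0.15 to 0.30, 25 pairs). With 1 fish left out, the serum lectin sum for *H. flavolineatum* over *H. macrostomum* ranged from 1.33 to 1.62 and the intelectin-1a sum for *H. carbonarium* over *H. flavolineatum* from -0.13 to 0.05. Restricted to 2 species, isogroup1539 and isogroup2344 (*H. carbonarium* and *H. flavolineatum*) and isogroup31605 and isogroup43018 (*H. carbonarium* and *H. macrostomum*) fell below the filter and gave no value. Counts of other lectins called moved most, and without a filter or with DESeq2 they also cover lectins below the filter. Between *H. carbonarium* and *H. flavolineatum* (2 higher, 1 lower), 1 was higher with upper-quartile scaling, with the block and without the 6 egg-rich fish (then 0 lower), 1 higher and 3 lower without a filter, 3 lower with DESeq2, and 0 higher with only these species, where isogroup37168 fell below the filter and was not tested. Between *H. carbonarium* and *H. macrostomum* (none), there were 1 higher and 3 lower without a filter and 1 and 1 with DESeq2. Between *H. flavolineatum* and *H. macrostomum* (1 higher, 2 lower), 1 was lower with upper-quartile scaling, with the block and without the egg-rich fish (then 0 higher), 5 were higher and 5 lower without a filter, and 3 and 5 with DESeq2. At an adjusted p under 0.05 in place of 0.01, 3 were lower. With 1 fish left out, 1 to 2 were higher between *H. carbonarium* and *H. flavolineatum*, and 1 to 3 lower between *H. flavolineatum* and *H. macrostomum*. More isogroups are tested without a filter, and fewer fish carry isogroup21356 past it without the egg-rich fish; the other causes were not tested. Of the 46 correlations, 30 kept their sign under every alternative. Among those given above outside the 37 others, r of isogroup48155 and isogroup2097 in *H. carbonarium* reversed to 0.0243 without 2 fish, and that of isogroup43018 and isogroup31605 in *H. flavolineatum* to -0.0801 without the egg-rich fish. On CPM without TMM, 1 correlation passed, where none did otherwise. Alternatives chosen after seeing the data left out 1 fish for each SD, where the exceptions above 1.5 times were isogroup2344 and isogroup48155 as given above, and for each limit on a fold, where it was isogroup20440. The 36 mean levels moved by less than 1 SD with other scalings. With 8 to 17 fish per species and levels near 1 count in the low species, differences among low levels could not be resolved.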

Other observations

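Other lectin isogroups lay below the count filter but had uneven counts, and were picked after their values were seen. Serum lectin isoform 1 (isogroup28365) had 0 counts over all *H. carbonarium*, 0 over all *H. flavolineatum* and 46 over all *H. macrostomum*, so that against 3 counts over the group it was at least 9.35-fold lower in *H. carbonarium* and at least 20.1-fold lower in *H. flavolineatum*. Without *H. macrostomum* fish 4 these limits were 7.82-fold and 16.8-fold. Serum lectin isoform 2 (isogroup20440) had 2 counts over all *H. carbonarium*, 0 over all *H. flavolineatum* and 79 over all *H. macrostomum*, at least 34.5-fold lower in *H. flavolineatum*, or at least 20.9-fold without *H. macrostomum* fish 11, which held 36 of the 79 counts. L-rhamnose-binding lectin SML (isogroup4028), of a family known from fish eggs and mucus, had 1 count over all *H. carbonarium*, 231 over all *H. flavolineatum* and 31 over all *H. macrostomum*, and *H. flavolineatum* ranged from 0 to 44.3 CPM. Fish-egg lectin (isogroup25823) had 11 counts over all *H. carbonarium*, 5 over all *H. flavolineatum* and 128 over all *H. macrostomum*, of which fish 10 held 65. These differences were not tested, and mapping to the *H. macrostomum* transcriptome cannot be told apart from level here.

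Hepcidin, another secreted liver defence protein, also had isogroups that ran opposite ways. Isogroup13090 was at 5.92, 226 and 322 CPM (lowest, median, highest) in *H. carbonarium*, at 90.9, 210 and 363 CPM in *H. flavolineatum* and at 5.18, 14.8 and 43.1 CPM in *H. macrostomum*, with a log2 fold change of 3.63 (SE 0.37, edgeR adjusted p = 1.95e-10) for *H. flavolineatum* over *H. macrostomum*. Isogroup5033 was at 249, 626 and 1820 CPM in *H. carbonarium*, at 141.3, 636 and 5512 CPM in *H. flavolineatum* and at 427, 5196 and 13235 CPM in *H. macrostomum*, with -2.32 (SE 0.44, adjusted p = 5.34e-05) for the same pair. Isogroup12503 had -2.25 (SE 0.66, adjusted p = 0.00674). The names come from a table of differentially expressed genes, so that the 3 calls are not independent evidence.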
